A study of Mus musculus with 24 samples.

Results

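Bone marrow-derived macrophages of wild-type (WT) mice stimulated with lipopolysaccharide (LPS) were set directly against WT macrophages given interleukin-4 (IL-4), the stimuli that give the states commonly named M1 and M2. The members are the WT libraries labelled with either stimulus, 4 LPS and 4 IL-4, or 8 of the 24 RNA sequencing libraries of the series. The WT cells, of strain C57BL/6J and from mice aged 12 weeks, received LPS at 100 ng/ml for 12 hours or IL-4 at 10 ng/ml for 12 hours, and the 4 unstimulated WT libraries (M0) serve as a resting level. The other 12 libraries are OGT knockout (KO) macrophages in the same 3 states. They entered the same fit, so they share its estimate of spread, and their own values serve to test whether the separation of the states differed by genotype. Libraries are numbered by the first digit of their label code. Separate animals or cultures behind the 4 libraries of a group are not stated in the labels, and p-values therefore reflect spread between libraries, which may be technical.

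LPS, a cell wall component of Gram-negative bacteria, is sensed by Toll-like receptor 4 with CD14 and MD-2, and its adaptors MyD88 and TRIF lead to NF-kB and to IRF3, which starts production of interferon-beta and through it of interferon-stimulated genes. IL-4 acts through its receptor and the transcription factor STAT6, and in mouse macrophages it is known for arginase 1, the resistin-like and chitinase-like secreted proteins and lectins such as the mannose receptor. NF-kB binds a short motif of a G run and a C run, interferon regulatory factors bind repeats of GAAA, and STAT6 binds TTC and GAA arms set apart by a short spacer.

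The promoter stretches below show matches of letters to such motifs, not binding, in named genes that were higher in one of the 2 states. They come from the RefSeq promoter table of GRCm38.p6, which covers 250 bases before to 50 bases after each transcript start, and are written 5′ to 3′ along the gene's strand. Capitals mark the match, with flanking bases in lower case to a total of 60. Matches to the NF-kB consensus, searched on both strands, came from genes higher in LPS (in Cxcl10, overlapping matches give 11 capitals):
Cxcl10, chr5:92348958-92349017, minus strand: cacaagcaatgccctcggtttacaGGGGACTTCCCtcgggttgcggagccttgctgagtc
Il6, chr5:30013045-30013104, plus strand: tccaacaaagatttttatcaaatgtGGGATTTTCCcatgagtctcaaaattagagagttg
Matches to the interferon response pattern (GAAA, any 2 bases, then GAAA again) also came from genes higher in LPS:
Saa3, chr7:46715767-46715826, minus strand: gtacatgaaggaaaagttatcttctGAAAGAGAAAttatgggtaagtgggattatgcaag
Cxcl10, chr5:92349068-92349127, minus strand: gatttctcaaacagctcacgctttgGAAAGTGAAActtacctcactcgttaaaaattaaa
Ifit3b, chr19:34607778-34607837, plus strand: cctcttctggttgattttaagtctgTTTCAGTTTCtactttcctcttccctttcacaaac
Ifit3, chr19:34583382-34583441, plus strand: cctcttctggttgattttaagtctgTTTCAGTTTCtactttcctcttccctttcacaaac
Matches to the STAT6 pattern (TTC, any 4 bases, then GAA) came from genes higher in IL-4:
Retnla, chr16:48842439-48842498, plus strand: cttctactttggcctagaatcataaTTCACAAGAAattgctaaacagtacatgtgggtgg
Tmem26, chr10:68723680-68723739, plus strand: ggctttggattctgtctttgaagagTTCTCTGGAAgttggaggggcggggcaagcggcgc
Pdcd1lg2, chr19:29410812-29410871, plus strand: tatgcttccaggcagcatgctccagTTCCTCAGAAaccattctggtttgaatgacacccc

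The distance from the first base of the match to the transcript start was 103 bases in Cxcl10 for the NF-kB match and 213 for the interferon match. It was 44 bases in Il6, 125 in Saa3, 154 in Ifit3b and 122 in Ifit3. In the genes higher in IL-4 it was 145 bases in Retnla, 41 in Tmem26 and 82 in Pdcd1lg2. The starts used for Saa3, Ifit3b and Ifit3 lie inside the annotated gene span. The printed Ifit3b and Ifit3 stretches are identical, these genes being close copies, and the match there reads on the other strand.

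The deposited values are read counts per gene, and levels are given as counts per 1000000 (CPM) scaled with edgeR's TMM factors. LPS libraries 1 and 2 held only 209368 and 201097 gene counts, and LPS libraries 3 and 4 held 68288600 and 65241485. The IL-4 libraries held 67280889 to 83034990 and the M0 libraries 66382204 to 85796714. A count of 0, which allows up to 3 counts, therefore allows 15.5 and 15.7 CPM in LPS libraries 1 and 2, against 0.0509 and 0.0535 CPM in LPS libraries 3 and 4 and 0.0343 to 0.0428 CPM in the IL-4 libraries. A value of about 5.2 CPM in LPS library 1 or 2 is a single read. These limits cover counting error only.

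Macrophage identity was checked with 23 markers, all of them tested and none at 0. Their summed level was 30195 to 32677 CPM in LPS libraries, 20237 to 22766 CPM in IL-4 libraries and 31882 to 35263 CPM in M0 libraries. Csf1r, the receptor for macrophage colony-stimulating factor, had 990.2, 1078, 1173 and 1187 CPM in LPS libraries 1 to 4, against 1157, 1092, 1039 and 1059 CPM in IL-4 libraries 1 to 4. The groups overlapped for Csf1r (log2 fold change 0.047 ± 0.12, adjusted p = 0.757 by edgeR's quasi-likelihood test with Benjamini-Hochberg adjustment; ± is the standard error throughout). Of the 23 markers 12 were higher and 6 lower in LPS, where 31 percent of all genes were higher and 31.9 percent lower. Adgre1 (F4/80) had 2068, 2280.4, 2401 and 2417 CPM in LPS libraries, against 580.3, 569.7, 594 and 596 CPM in IL-4 libraries, with no overlap. In bulk RNA, fewer cells of a type and less RNA per cell cannot be told apart.

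The states differed across most of the transcriptome. Of 14693 genes tested, edgeR's quasi-likelihood test at an adjusted p under 0.05 called 9240 genes (62.9 percent), of which 4553 (31 percent) were higher and 4687 (31.9 percent) lower in LPS. Tested against a 2-fold change rather than against no change, 1360 genes (9.26 percent) were higher and 935 (6.36 percent) lower in LPS, whereas DESeq2 gave 997 higher and 515 lower. In 6179 genes (42.1 percent) the 4 LPS and 4 IL-4 values did not overlap, 2245 (15.3 percent) with LPS higher and 3934 (26.8 percent) with LPS lower. A gene at 0 in LPS library 1 or 2 can count only among those with LPS lower. With the 8 WT libraries alone the test called 4667 genes higher and 4827 lower. Without LPS libraries 1 and 2 it called 4907 genes higher and 4476 lower, and among the lists described here this changed the number of members called by at most 1 in either direction. The median log2 fold change over all genes tested was -0.01. Among called genes, a fitted fold of 16 or more was found in 315 genes higher and 110 genes lower in LPS. In the plot of fold change against level, Saa3 has the highest level of the 12 labelled genes on the LPS side and Retnla of the 12 on the IL-4 side.

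**Figure D1:**
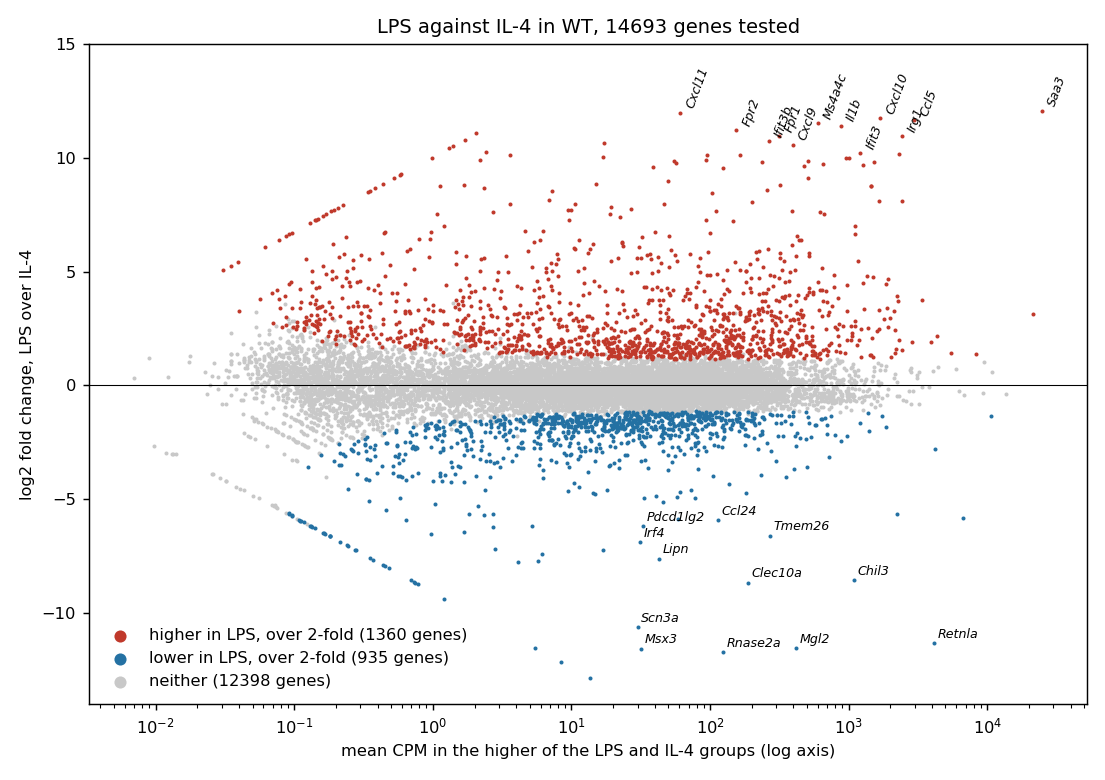
Log2 fold change (LPS over IL-4, WT) of each of the 14693 genes tested against the mean CPM of the higher group (log axis). Red points are the 1360 genes higher and blue points the 935 genes lower in LPS over 2-fold, and names mark the 12 largest changes in each direction among genes of at least 20 CPM without overlap, with Saa3 at the upper right and Retnla at the lower right.

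Genes that are used to read polarization separated the states completely, with 1 exception in direction. Nos2 (chr11:78920787-78960226, GRCm38), the inducible nitric oxide synthase, had 87.7, 78.5, 94.9 and 111 CPM in LPS libraries 1 to 4, against 0.037, 0.14, 0.0915 and 0.157 CPM in IL-4 libraries 1 to 4 and 0.228, 0.083, 0 and 0.0922 CPM in M0 libraries 1 to 4. Every LPS library stood far above every IL-4 library, and IL-4 and M0 overlapped (log2 fold change 9.91 ± 0.35, adjusted p = 7.65e-19). Arg1 (chr10:24915207-24927470), arginase 1, which uses the same substrate, had 119, 83.7, 121 and 118 CPM in LPS libraries, against 6897, 6814, 6476 and 6537 CPM in IL-4 libraries and 15.9, 9.66, 7.05 and 9.92 CPM in M0 libraries. Arg1 was highest in IL-4 (log2 fold change -5.84 ± 0.26, adjusted p = 9.32e-17), yet every LPS library was also above every M0 library, by 3.46 on the log2 scale (adjusted p = 5.83e-13), while IL-4 exceeded M0 by 9.30.

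Among secreted mediators, Il1b (chr2:129364569-129371164), interleukin-1 beta, had 1047, 853, 689 and 912 CPM in LPS libraries, against 0.222, 0.238, 0.32 and 0.471 CPM in IL-4 libraries and 4, 0.941, 0.587 and 0.68 CPM in M0 libraries. IL-4 libraries lay below all M0 libraries for Il1b (-2.31 on the log2 scale against M0), so that LPS and IL-4 stood on opposite sides of resting cells (log2 fold change 11.41 ± 0.49, adjusted p = 5.96e-17 for LPS over IL-4). Tnf, tumour necrosis factor, had 237, 199, 212 and 249 CPM in LPS libraries, against 3.45, 4.17, 4.11 and 3.6 CPM in IL-4 libraries and 7.18 to 10.3 CPM in M0 libraries, the same order (log2 fold change 5.90 ± 0.14, adjusted p = 4.72e-22). Il6 had 25.8, 31.4, 21.2 and 28.7 CPM in LPS libraries, against 1.02, 0.966, 0.709 and 0.585 CPM in IL-4 libraries and 0.196 to 0.416 CPM in M0 libraries. For Il6 the IL-4 libraries stood above the M0 libraries, though far below LPS (log2 fold change 4.93 ± 0.20, adjusted p = 2.31e-17). Il12b, the p40 subunit shared by IL-12 and IL-23, had 10.3, 26.2, 12.8 and 18.6 CPM in LPS libraries, against 0, 0.028, 0 and 0.0285 CPM in IL-4 libraries, which hold 4 reads in all (log2 fold change 10.06 ± 0.43, adjusted p = 6.4e-17). Cxcl10, a chemokine that draws CXCR3-bearing T cells, had 1712, 1391, 1769.7 and 1862 CPM in LPS libraries, against 0.0493, 0.266, 0.973 and 0.67 CPM in IL-4 libraries (log2 fold change 11.74 ± 0.59, adjusted p = 1.91e-15). Irg1 (RefSeq Acod1, chr14:103047012-103056573), which makes itaconate, had 2249, 2202, 2551 and 2653 CPM in LPS libraries, against 0.924, 0.966, 1.42 and 1.66 CPM in IL-4 libraries (log2 fold change 10.94 ± 0.72, adjusted p = 4.47e-13).

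On the IL-4 side, Retnla (chr16:48842609-48844461), a resistin-like protein also called RELM-alpha or Fizz1, had 0, 5.23, 0 and 3.23 CPM in LPS libraries, against 4039.6, 4389, 3786 and 4302 CPM in IL-4 libraries and 5.42, 0.733, 0 and 2.4 CPM in M0 libraries. LPS and M0 overlapped at low levels, and IL-4 stood apart (log2 fold change -11.34 ± 1.17, adjusted p = 3.4e-09 for LPS over IL-4). Chil3, the chitinase-like protein Ym1, had 5.16, 0, 1.61 and 4.26 CPM in LPS libraries, against 1335, 1379, 785 and 875 CPM in IL-4 libraries and 2.93, 2.16, 2.39 and 2.41 CPM in M0 libraries (log2 fold change -8.55 ± 0.33, adjusted p = 4.96e-18). IL-4 libraries 1 and 2 were higher than 3 and 4 for Chil3, a spread within the group that does not reach the LPS values. The same split was seen for Clec10a and, in the other direction, for Mgl2, but not for Tmem26. In KO IL-4 libraries 5 to 8 Retnla had 4244, 3962, 1946 and 1646 CPM. Whether libraries of such pairs share an origin was not tested. Mrc1, the mannose receptor CD206, had 46.4, 10.5, 46.3 and 45.6 CPM in LPS libraries, against 2204, 2128, 2321 and 2226 CPM in IL-4 libraries and 905, 819.7, 948 and 1009 CPM in M0 libraries. Unlike Retnla and Chil3, Mrc1 was abundant in resting cells, and its log2 fold change against M0 was -4.36 in LPS and 1.27 in IL-4 (log2 fold change -5.63 ± 0.17, adjusted p = 5.59e-20 for LPS over IL-4). LPS library 2 held 2 reads of Mrc1 and stood below the other LPS libraries.

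The exception was Ccl17, a ligand of CCR4 often listed among IL-4 markers. It had 5.16, 5.23, 2.49 and 3.32 CPM in LPS libraries, against 0.887, 0.854, 0.652 and 0.67 CPM in IL-4 libraries and 0.18, 0.263, 0.139 and 0.0807 CPM in M0 libraries. Ccl17 was higher in LPS than in IL-4 (log2 fold change 1.95 ± 0.30, adjusted p = 2.39e-06), with both above M0, by 4.18 for LPS and 2.22 for IL-4 on the log2 scale. The values of LPS libraries 1 and 2 are 1 read each, and the deep LPS libraries alone also stood above all 4 IL-4 libraries.

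**Figure D2:**
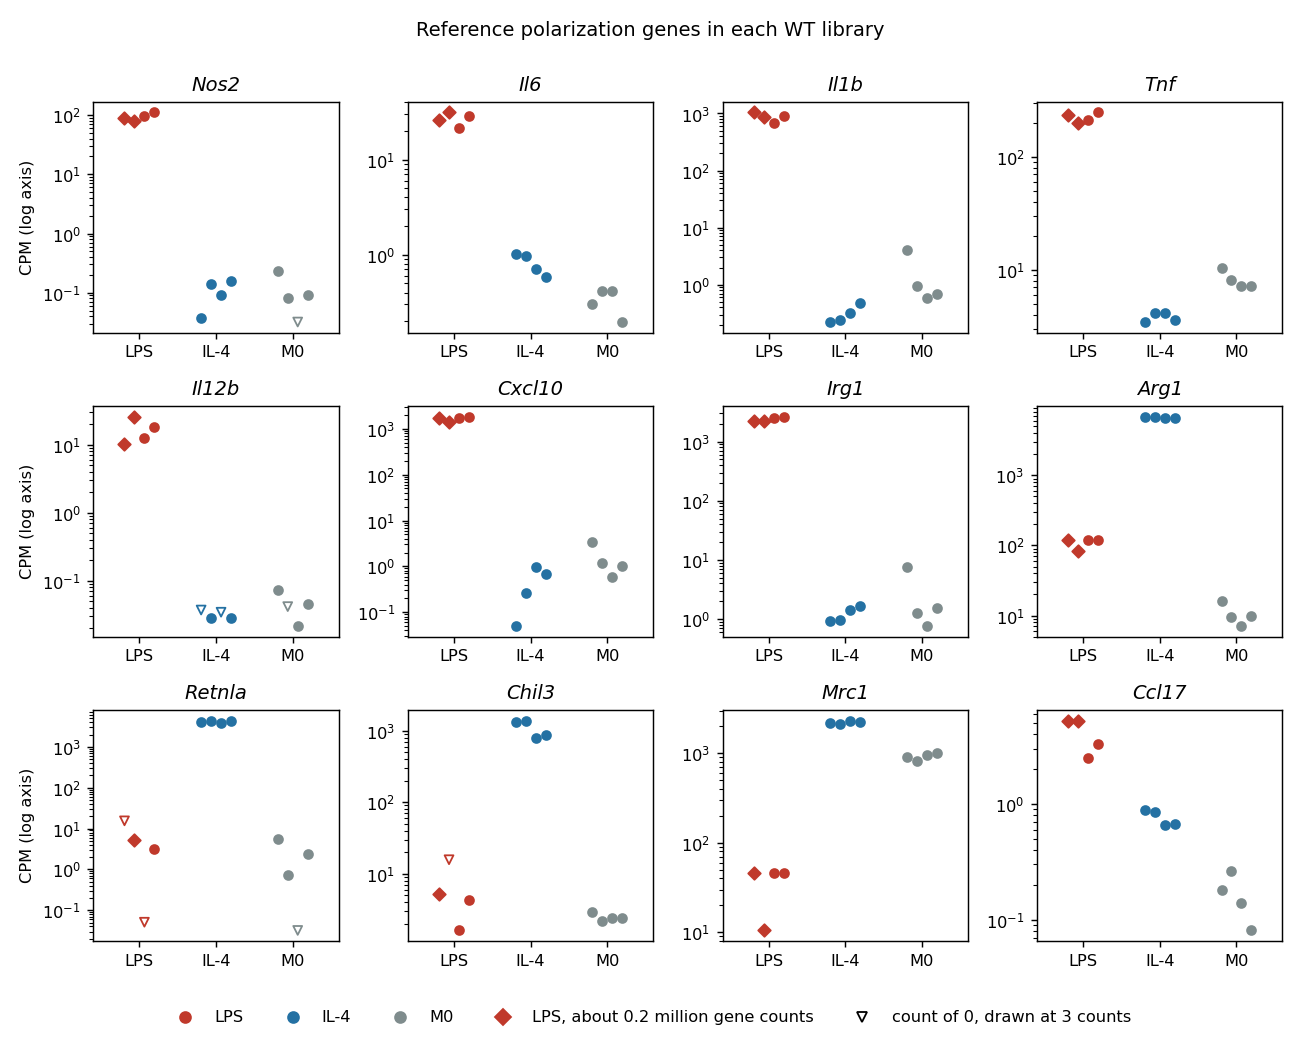
CPM (log axis) of 12 genes used to read macrophage polarization in each WT library, with LPS left, IL-4 in the middle and M0 right; red diamonds are the shallow LPS libraries 1 and 2 and open triangles are counts of 0, drawn at 3 counts. LPS values lie above IL-4 values in the first 7 panels and in Ccl17, and below them in Arg1, Retnla, Chil3 and Mrc1.

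The 12 largest fitted changes on the LPS side, among called genes without overlap that averaged 20 CPM or more in either state, were Saa3, Cxcl11, Cxcl10, Ccl5, Ms4a4c, Il1b, Fpr2, Irg1, Fpr1, Ifit3b, Cxcl9 and Ifit3. Saa3 (chr7:46711998-46719615), an acute-phase apolipoprotein, was the most abundant transcript of all 4 LPS libraries. Its level was 28364, 22459, 24499.7 and 24142 CPM in LPS libraries, against 1.82, 7.04, 7.31 and 6.98 CPM in IL-4 libraries and 69.3, 8.22, 4.56 and 7.86 CPM in M0 libraries (log2 fold change 12.07 ± 1.03, adjusted p = 9.58e-11). Saa3 alone took 2.63, 2.14, 2.12 and 2.08 percent of all gene counts in LPS libraries 1 to 4. Fpr1 and Fpr2, receptors for bacterial formyl peptides, had 277 to 382 and 120.3 to 175 CPM in LPS libraries, against 0.114 to 0.21 and 0.0247 to 0.114 CPM in IL-4 libraries. Both were also lower in IL-4 than in M0, with log2 fold changes of -4.0 for Fpr1 and -4.12 for Fpr2. Ms4a4c, a membrane protein of the MS4A family, had 466 to 661 CPM in LPS libraries, against 0.111 to 0.446 CPM in IL-4 libraries (log2 fold change 11.51 ± 0.40, adjusted p = 5.72e-19). Cxcl9 and Cxcl11, which bind the same receptor as Cxcl10, had 351 to 438 and 41.8 to 82.5 CPM in LPS libraries, against 0 to 0.652 and 0 to 0.0458 CPM in IL-4 libraries. Ccl5 (RANTES) had 2343 to 3373 CPM in LPS libraries, against 0.247 to 1.28 CPM in IL-4 libraries and 7.03, 0.83, 0.534 and 1.48 CPM in M0 libraries. M0 library 1 was the highest of the M0 libraries for all 12 of these genes, and their changes against M0 include it. For Il1b it had 4 CPM, against 0.587 to 0.941 CPM in the other M0 libraries. No cause was tested.

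On the IL-4 side the 12 largest changes under the same rule were Rnase2a, Msx3, Mgl2, Retnla, Scn3a, Clec10a, Chil3, Lipn, Irf4, Tmem26, Pdcd1lg2 and Ccl24. Rnase2a (chr14:51255261-51256112), which RefSeq also lists as Ear11, an eosinophil-associated ribonuclease, had 0, 0, 0 and 0.0713 CPM in LPS libraries, against 136, 139, 105 and 116 CPM in IL-4 libraries and 0 to 0.0721 CPM in M0 libraries (log2 fold change -11.73 ± 0.68, adjusted p = 3.62e-14). It was at the floor in both LPS and M0. Mgl2 and Clec10a (chr11:70130125-70137542 and chr11:70166623-70170836) encode galactose-type lectins of macrophages and lie close together on chromosome 11. Mgl2 had 0, 0, 0.153 and 0.125 CPM in LPS libraries, against 381, 381, 468 and 447 CPM in IL-4 libraries, and Clec10a had 0, 0, 0.271 and 0.66 against 231, 247, 138 and 133 CPM. Clec10a, unlike Rnase2a, was present at rest (14.1 to 27.2 CPM in M0 libraries), was lower than M0 in LPS (-5.46 on the log2 scale) and was higher than M0 in IL-4 (3.20).

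Msx3, a homeobox gene, and Scn3a, a voltage-gated sodium channel subunit, are not among commonly used macrophage markers. Msx3 had 1 read in all LPS libraries together, against 9845 in IL-4 libraries, where its level was 35.3, 37.5, 27.5 and 27.1 CPM. The pooled level was 3666 times as high in IL-4, with a 95 percent counting interval of 658 to 144809. Scn3a had 2 reads in LPS libraries against 9360 in IL-4 libraries, a ratio of 1743 with an interval of 482 to 14392. Tmem26, a transmembrane protein, had 0, 0, 3.31 and 2.25 CPM in LPS libraries, against 272, 263, 278 and 266 CPM in IL-4 libraries (log2 fold change -6.61 ± 0.22, adjusted p = 2.08e-19). The spread within IL-4 was small for Tmem26, and LPS libraries 1 and 2 held no read of it. Lipn, a lipase family gene, had 5.16, 0, 0.22 and 0.196 CPM in LPS libraries, against 43.1, 40.1, 44.6 and 44.3 CPM in IL-4 libraries (log2 fold change -7.62 ± 0.27, adjusted p = 1.18e-18). Irf4, a transcription factor downstream of the IL-4 receptor, had 0, 0, 0.119 and 0.41 CPM in LPS libraries, against 31.6, 30.9, 30.8 and 31.6 CPM in IL-4 libraries (log2 fold change -6.90 ± 0.46, adjusted p = 5.85e-13). Pdcd1lg2 (PD-L2), a ligand of the T cell receptor PD-1, had 0, 0, 0.356 and 0.553 against 33.6, 31.4, 33.5 and 32.1 CPM. LPS libraries 1 and 2 held no read of Irf4 or Pdcd1lg2, which at their depth allows 15.5 and 15.7 CPM, so the low LPS level is resolved by LPS libraries 3 and 4.

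**Figure D3:**
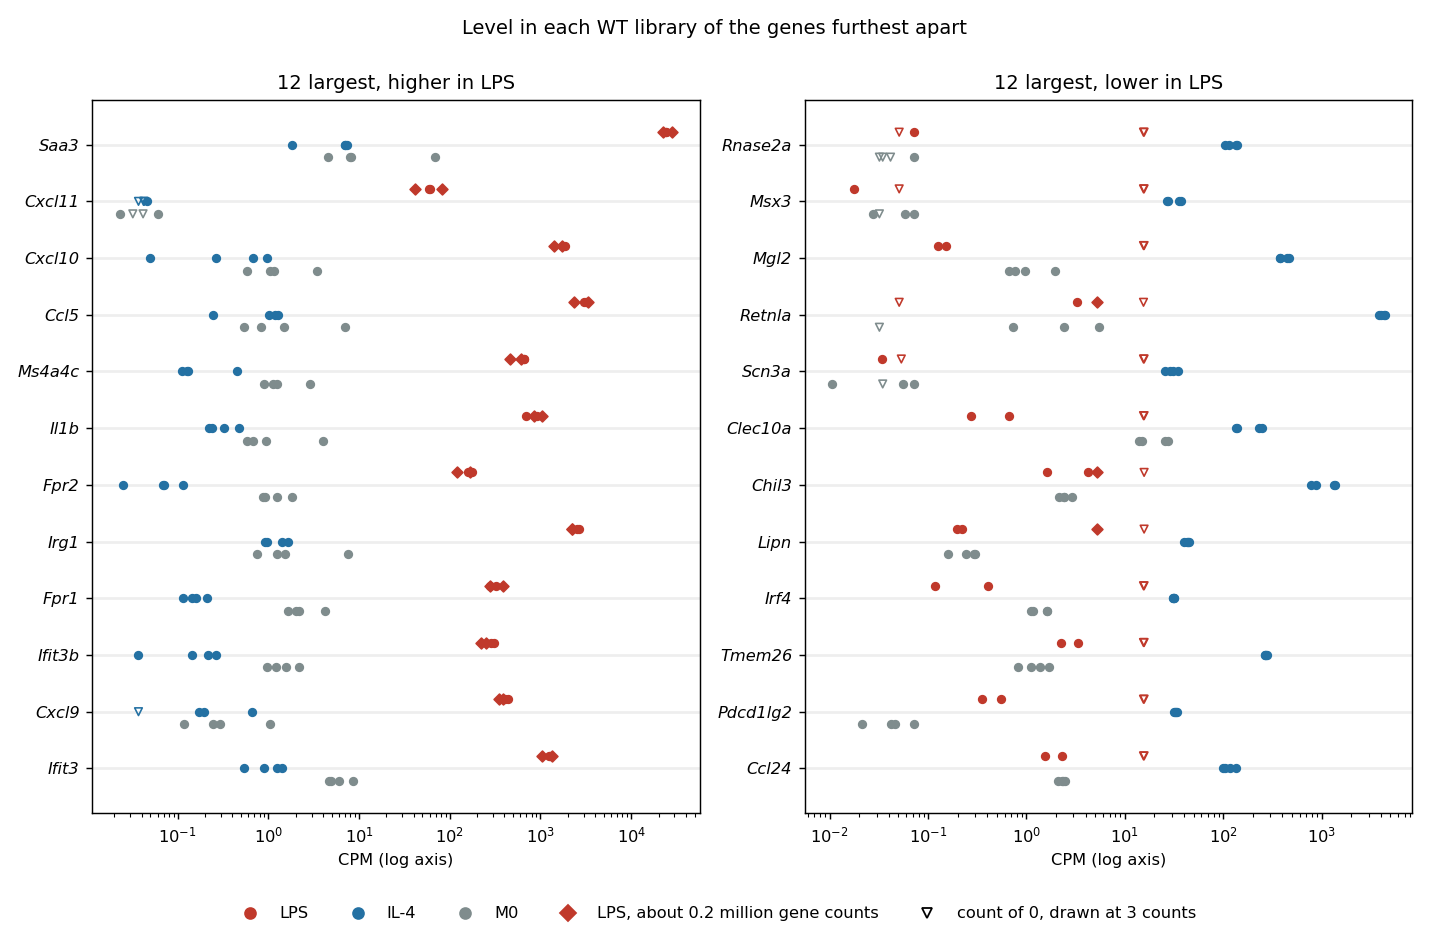
CPM (log axis) in each WT library for the 12 genes with the largest change on each side; within a gene, LPS is drawn above IL-4 and M0, with red diamonds for the shallow LPS libraries 1 and 2 and open triangles for counts of 0, drawn at 3 counts. Of the 12 IL-4-side genes, 9 have no read in LPS libraries 1 and 2, drawn as triangles at 15.5 and 15.7 CPM.

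Of 22 Toll-like receptor and adaptor genes, 14 were higher and 2 lower in LPS, where 31 percent of all genes were higher and 31.9 percent lower. Their median log2 fold change was 0.91, against -0.01 over all genes. Cd14, the LPS co-receptor, had 1135, 1156, 1133 and 1267 CPM in LPS libraries, against 28.03, 29.4, 23.6 and 26.5 CPM in IL-4 libraries and 163 to 193 CPM in M0 libraries (log2 fold change 5.46 ± 0.087, adjusted p = 3.41e-25). Again IL-4 lay below M0 and LPS above it. Tlr2, the receptor for bacterial lipoproteins, had 263 to 319 CPM in LPS libraries, against 8.96 to 11.3 CPM in IL-4 libraries and 78.2 to 87.8 CPM in M0 libraries, and Irak3, an inhibitor of the pathway, had 108 to 219.7 CPM against 9.48 to 11.8 CPM. Tlr4, the LPS receptor itself, went the other way, with 26.4 to 41.8 CPM in LPS libraries, against 67.1 to 74.7 CPM in IL-4 libraries (log2 fold change -1.39 ± 0.12, adjusted p = 1.44e-10), as did the kinase gene Irak1 (log2 fold change -0.50 ± 0.066). Ticam2, Irak4, Ly86, Tlr5, Tlr8 and Tlr13 were not called, with log2 fold changes between -0.14 and 0.33.

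Of 24 cytokine genes tested, 19 were higher and 3 lower in LPS, with a median log2 fold change of 4.07. Over all genes, 31 percent were higher and 31.9 percent lower. Il1a, interleukin-1 alpha, had 87.7 to 115 CPM in LPS libraries, against 0.868 to 1.03 CPM in IL-4 libraries (log2 fold change 6.70 ± 0.21, adjusted p = 5.1e-20), and Il27, a subunit of a cytokine of the IL-12 family, had 15.5 to 31.4 against 0.2 to 0.462 CPM. Il1rn, which blocks the IL-1 receptor, was the most abundant cytokine gene in LPS, at 1663 to 2132 CPM, against 71.7 to 83.1 CPM in IL-4. Csf3 (G-CSF) had no read in IL-4 libraries and 0, 0, 2.48 and 4.35 CPM in LPS libraries, at least 349-fold higher in LPS against a floor of 3 reads over the IL-4 group. The 3 lower genes, with their log2 fold changes, were Edn1 (-2.24 ± 0.19), Osm (-0.40 ± 0.17) and Csf1 (-0.33 ± 0.10), and Edn1 (endothelin 1) alone was lower over 2-fold. Osm was at an adjusted p of 0.0456, and without LPS libraries 1 and 2 the number of lower cytokine genes was 2.

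All 15 inflammatory chemokine genes were tested, and 14 were higher in LPS (31 percent of all genes were), with a median of 4.29. Cxcl16, a membrane-bound chemokine, had 445 to 557 CPM in LPS libraries, against 25.2 to 30.1 CPM in IL-4 libraries and 93.8 to 96.5 CPM in M0 libraries, and Ccl3 had 176 to 217 against 10.7 to 12.8 and 21.5 to 24.3 CPM. Ccl7, a monocyte attractant that binds CCR2, was the member not called. It had 712, 471, 598 and 694 CPM in LPS libraries, against 538, 611, 510.2 and 560.3 CPM in IL-4 libraries and only 21.7 to 26.2 CPM in M0 libraries. The LPS and IL-4 values of Ccl7 overlapped (log2 fold change 0.18 ± 0.15, adjusted p = 0.306), and both were above M0, by 4.71 and 4.52 on the log2 scale. Ccl2, Ccl9 and Ccl12 were also above M0 in both states, and LPS exceeded IL-4 by only 1.04, 1.23 and 1.67 on the log2 scale.

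Of 7 type 2 chemokines tested, 3 were higher and 3 lower in LPS, where 31 percent of all genes were higher and 31.9 percent lower, with a median of 0.37. Ccl24 (eotaxin-2), a ligand of the eosinophil receptor CCR3, had 0, 0, 1.54 and 2.28 CPM in LPS libraries, against 117, 136, 99.8 and 104 CPM in IL-4 libraries, and Ccl11 (eotaxin-1) had 0, 0, 0.0678 and 0.0357 against 2.9, 4.27, 1.89 and 1.85 CPM. Cxcl14 was higher in LPS, with 332 to 454 CPM against 93.3 to 137 CPM (log2 fold change 1.70 ± 0.22, adjusted p = 1.39e-07). Ccl22, a ligand of CCR4 like Ccl17, was above M0 in both states, by 5.61 in LPS and 6.13 in IL-4, and its LPS and IL-4 values overlapped (log2 fold change -0.52 ± 0.21, adjusted p = 0.0349). Cxcl13 had no read in IL-4 libraries and 5.16, 0, 0.933 and 0.66 CPM in LPS libraries, at least 83.3-fold higher in LPS.

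Of 29 LPS effector genes tested, 28 were higher in LPS, 23 of them over 2-fold, with a median of 4.34. Over all genes, 31 percent were higher and 9.26 percent higher over 2-fold. Cd38, an enzyme that consumes NAD, had 619, 554, 671 and 714 CPM in LPS libraries, against 18.9, 19.8, 18.3 and 17.5 CPM in IL-4 libraries (log2 fold change 5.15 ± 0.10, adjusted p = 4.86e-24). Sod2, the mitochondrial superoxide dismutase, had 1642 to 2051 against 83.5 to 88.3 CPM, and Ptges, which makes prostaglandin E2, had 954 to 1204 against 10.3 to 12.1 CPM. Members of the same list that are often read as activation markers differed widely in size. Cd40, the receptor for CD40 ligand of T cells, and Cd86, a ligand of CD28, were higher by 3.85 and 3.52 on the log2 scale, whereas Cd80 was higher by 0.55 with overlapping values. F10 (coagulation factor X) was not called (log2 fold change -0.081 ± 0.10, adjusted p = 0.478) and stood above M0 in both states, by 4.66 in LPS and 4.74 in IL-4. Slc7a2, a carrier of arginine, likewise stood above M0 by 5.48 in LPS and 4.79 in IL-4.

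Of 25 genes for NF-kB subunits and their feedback regulators, 23 were higher and 1 lower in LPS, with a median of 2.23. Over all genes, 31 percent were higher and 31.9 percent lower. Nfkbia, the inhibitor I-kappa-B alpha, had 299, 324, 307 and 338 CPM in LPS libraries, against 28.1, 23, 23.8 and 22.7 CPM in IL-4 libraries (log2 fold change 3.71 ± 0.088, adjusted p = 3.73e-22). Traf1, an adaptor of TNF receptors, had 124 to 167 against 0.842 to 1.27 CPM, and Icam1, an adhesion molecule, had 497 to 619 against 34.3 to 36.3 CPM. The subunits themselves differed less: Rela was higher by 0.66, Nfkb1 by 0.34, Relb by 2.61 and Nfkb2 by 3.01, while Rel was not called (log2 fold change 0.22 ± 0.17, adjusted p = 0.281). Atf3, a repressor of inflammatory genes, was the lower member, with 178 to 216 CPM in LPS libraries, against 288 to 338 CPM in IL-4 libraries and 104 to 114 CPM in M0 libraries.

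All 44 interferon-stimulated genes were higher in LPS over 2-fold, and the 4 LPS values of each lay above its 4 IL-4 values. Over all genes, 9.26 percent were higher over 2-fold and 15.3 percent had LPS values above without overlap. The median log2 fold change was 5.69. Isg20, an exonuclease acting on viral RNA, had 319.7, 214, 253 and 260.0 CPM in LPS libraries, against 4.4, 4.05, 4.14 and 3.84 CPM in IL-4 libraries (log2 fold change 5.97 ± 0.10, adjusted p = 3.41e-25). Gbp3, a guanylate-binding GTPase, had 554 to 670.4 against 2.6 to 3.52 CPM, and Mx2, an antiviral GTPase, had 92.8 to 120.3 against 0.168 to 0.442 CPM. The signalling genes of the list moved with the effectors, with Irf7 at 8.08 ± 0.34 and Irf9 at 2.16 ± 0.11 on the log2 scale, the smallest change being that of Irf1 (2.03 ± 0.10). Together the 44 genes made up 24436 to 30041 CPM in LPS libraries, against 711 to 802 CPM in IL-4 libraries and 947 to 1102 CPM in M0 libraries. Against M0, 32 of the 44 were lower in IL-4 (29.3 percent of all genes were) and 44 were higher in LPS (29.4 percent of all genes were). Ifnb1, interferon-beta itself, had 0, 0, 0.373 and 0.267 CPM in LPS libraries and no read in IL-4 libraries, at least 33.1-fold higher in LPS.

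All 14 tested genes of MHC class I presentation and the immunoproteasome were higher in LPS over 2-fold, with a median of 2.61. Over all genes, 9.26 percent were. Tap1 and Tap2, which carry peptides into the endoplasmic reticulum, had 732 to 939 and 371 to 538 CPM in LPS libraries, against 56.8 to 61.4 and 74.5 to 81.1 CPM in IL-4 libraries, and H2-T23, a non-classical class I gene, had 851 to 967 against 140.3 to 156 CPM. Of 12 MHC class II genes, 3 were higher and 6 lower in LPS (31 and 31.9 percent of all genes), with a median of -0.69. In the 8 WT libraries alone, 1 was higher. H2-Ab1, the beta chain of I-A, had 30.9, 26.2, 30.5 and 33.1 CPM in LPS libraries, against 9.16, 9.8, 9.13 and 10.1 CPM in IL-4 libraries and 8.47 to 10.5 CPM in M0 libraries (log2 fold change 1.73 ± 0.094, adjusted p = 8.91e-15). H2-DMa, a chain of the peptide-loading factor, went the other way, with 30.9, 15.7, 28.6 and 28.4 against 86.4, 89.8, 77.02 and 78.4 CPM (log2 fold change -1.55 ± 0.14, adjusted p = 5.34e-10), as did Ifi30, a lysosomal thiol reductase, with 31.4 to 67.04 against 223 to 251 CPM. Cd74, the invariant chain, was lower in LPS (log2 fold change -1.19 ± 0.32), and the alpha chain partner H2-Aa was at 0 to 1.27 against 2.48 to 3.68 CPM. Reads of close family copies, such as H2, Gbp, Ifit3 and Ifit3b, Lyz1 and Lyz2, or Chil3 and Chil4, may have been divided between copies in the counting.

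Of 31 tested IL-4 and STAT6 target genes, 29 were lower in LPS, 25 of them over 2-fold. Over all genes, 31.9 percent were lower and 6.36 percent lower over 2-fold. The list median was -4.66 (-4.58 with the 3 genes that had no read in LPS set at their bounds). The summed level of the list was 1521 to 1789 CPM in LPS libraries, against 17838 to 19508 CPM in IL-4 libraries and 2751 to 2882 CPM in M0 libraries. At the receptor, Il4ra was the single member higher in LPS, with 330.1, 445, 374 and 361 CPM against 226, 231, 214 and 206 CPM (log2 fold change 0.76 ± 0.13, adjusted p = 7.61e-06). The signalling inhibitors differed among themselves. Cish and Socs2 were lower in LPS, with log2 fold changes of -4.58 and -1.55, while Socs1 had 61.9, 47.1, 60.8 and 66.6 CPM in LPS libraries, against 71.2, 75.1, 62.4 and 61.4 CPM in IL-4 libraries and 1.96 to 3.39 CPM in M0 libraries. Socs1 thus overlapped between the states (log2 fold change -0.10 ± 0.20, adjusted p = 0.694) and stood above M0 in both.

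Among transcription factors of the IL-4 list, Egr2 had 0, 0, 6.55 and 7.33 CPM in LPS libraries, against 134, 135, 139 and 139 CPM in IL-4 libraries and 14.5 to 15.9 CPM in M0 libraries (log2 fold change -4.31 ± 0.12, adjusted p = 4.85e-21), and Klf4, Pparg, Batf3 and Myc were lower in LPS, with log2 fold changes of -2.72, -3.01, -4.88 and -1.73. Clec7a (dectin-1), a receptor for fungal beta-glucan, had 30.9, 41.8, 31.01 and 32.6 CPM in LPS libraries, against 412, 415, 399.9 and 398 CPM in IL-4 libraries and 69.7 to 81.98 CPM in M0 libraries (log2 fold change -3.67 ± 0.078, adjusted p = 4.06e-23). Matk, a kinase that acts on Src-family kinases, had 5.16, 0, 1.14 and 0.838 against 57.8, 61.2, 55.5 and 59.95 CPM. Cdh1 (E-cadherin) and Chil4 had no read in any LPS library, and IL-4 libraries had 11.4 to 16.5 and 3.79 to 7.32 CPM, at least 522-fold and 208-fold higher in IL-4 against 3 reads over the LPS group. Alox15 also had no read in LPS and was low in IL-4, at 0.114 to 0.217 CPM, at least 6.45-fold higher. The list members lower in LPS by less, with their log2 fold changes, included Ch25h (-0.33 ± 0.14), Plxdc2 (-0.26 ± 0.068), Tgm2 (-0.72 ± 0.11) and Gatm (-0.72 ± 0.13). Without LPS libraries 1 and 2, 28 members were lower.

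**Figure D4:**
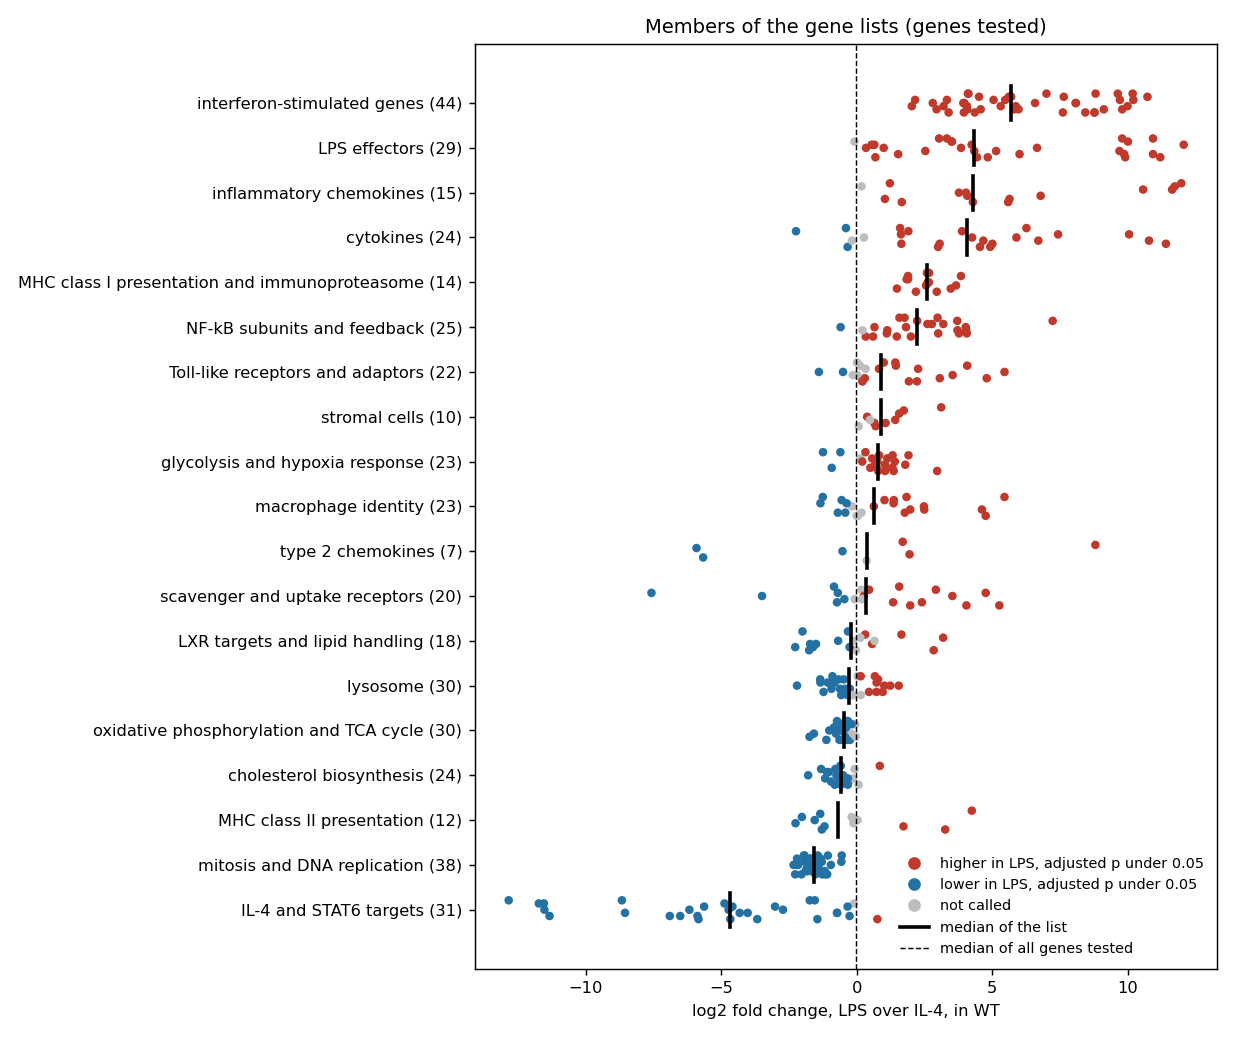
Log2 fold change (LPS over IL-4, WT) of each tested member of 17 pathway lists, the macrophage identity list and the stromal list, with the number of members in brackets; red is higher, blue lower and grey not called at an adjusted p under 0.05, black bars are list medians and the dashed line is the median of all genes. The medians run from 5.69 for interferon-stimulated genes to -4.66 for IL-4 and STAT6 targets, and the type 2 chemokine, scavenger receptor, lysosome and MHC class II lists spread to both sides.

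Glycolysis and respiration genes lay on opposite sides. Of 23 glycolysis and hypoxia-response genes tested, 19 were higher and 3 lower in LPS, with a median of 0.80. Over all genes, 31 percent were higher and 31.9 percent lower. Pfkfb3, which makes the activator of phosphofructokinase, had 273, 309, 341 and 344 CPM in LPS libraries, against 41.4, 43.1, 44.2 and 40.2 CPM in IL-4 libraries (log2 fold change 2.97 ± 0.085, adjusted p = 1.32e-20). Hk1 (hexokinase 1) had 232 to 262 against 99.7 to 102 CPM and Pfkl (liver-type phosphofructokinase) 516 to 633 against 202 to 233 CPM. Pfkp, Pfkfb4 and Adm were lower in LPS, with log2 fold changes of -0.60, -0.92 and -1.24. Of 30 genes of oxidative phosphorylation and the TCA cycle, 25 were lower and 0 higher in LPS, beside the same shares of all genes. The list median was -0.46. The list members lower over 2-fold were 3 (6.36 percent of all genes were). Idh1, the cytosolic isocitrate dehydrogenase and so not itself a TCA cycle enzyme, had 67.04, 36.6, 62.8 and 64.2 CPM in LPS libraries, against 202, 208, 216 and 212 CPM in IL-4 libraries (log2 fold change -1.74 ± 0.10, adjusted p = 1.55e-14). Idh2 had 10.3 to 55.5 against 152 to 161 CPM, and Fh1 (fumarate hydratase) had 36.1 to 37.1 against 76.4 to 82.1 CPM. For Fh1 the adjusted p of edgeR's test against a 2-fold change was 0.0491. Against M0, all 30 were higher in IL-4 (30.9 percent of all genes were), with a median of 0.57, while in LPS 10 were higher and 4 lower (28.3 percent of all genes were lower), with a median of 0.11.

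All 38 genes of mitosis and DNA replication were lower in LPS, 33 of them over 2-fold (6.36 percent of all genes were). In all 38 the LPS and IL-4 values did not overlap (26.8 percent of all genes had LPS lower in this way), with a median of -1.59. Ccna2 (cyclin A2) had 10.3, 26.2, 15.01 and 15.1 CPM in LPS libraries, against 70.3, 70.8, 64.4 and 71.7 CPM in IL-4 libraries and 41.8 to 47.5 CPM in M0 libraries (log2 fold change -2.20 ± 0.089, adjusted p = 1.69e-17). Kif11, a spindle motor, had 9.38 to 20.9 against 49.6 to 53.99 CPM, and Nusap1, a spindle protein, had 5.23 to 10.3 against 31.03 to 34.01 CPM. Against M0, 35 were lower in LPS (28.3 percent of all genes were) and 33 higher in IL-4 (30.9 percent of all genes were). The summed level was 1203 to 1387 CPM in LPS libraries, 3495 to 3735 CPM in IL-4 libraries and 2238 to 2415 CPM in M0 libraries.

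Of 24 cholesterol synthesis genes, 20 were lower in LPS (31.9 percent of all genes were), with a median of -0.60. Dhcr7, the last reductase of the pathway, had 15.5 to 31.4 CPM in LPS libraries, against 61.5 to 63.7 CPM in IL-4 libraries (log2 fold change -1.79 ± 0.12, adjusted p = 7.8e-13), Idi1 had 31.4 to 51.6 against 76.9 to 91.3 CPM and Stard4, a sterol carrier, 0 to 13.5 against 26.98 to 32.4 CPM. Of 18 lipid handling genes, 5 were higher and 9 lower in LPS, beside 31 percent higher and 31.9 percent lower among all genes. Nr1h3, the nuclear receptor LXR-alpha, had 126 to 147 CPM in LPS libraries, against 14.4 to 16.8 CPM in IL-4 libraries (log2 fold change 3.19 ± 0.071, adjusted p = 1.09e-22), and its target Abca1, a cholesterol exporter, had 279 to 350.4 against 39.1 to 53.1 CPM (log2 fold change 2.84 ± 0.11, adjusted p = 1.01e-17). Another exporter and LXR target, Abcg1, was lower in LPS (log2 fold change -1.61 ± 0.083), as was the fatty acid carrier Fabp5, with 139 to 183 against 543 to 604 CPM (log2 fold change -1.72 ± 0.078, adjusted p = 2.06e-16). Of 30 lysosome genes, 10 were higher and 16 lower in LPS, beside 31 percent higher and 31.9 percent lower among all genes. The share higher was thus near that of all genes. The list median was -0.29 (-0.01 over all genes). Psap, the precursor of saposins, had 4059 to 4339 CPM in LPS libraries, against 10398 to 10736 CPM in IL-4 libraries (log2 fold change -1.34 ± 0.078, adjusted p = 3.75e-14), and Lipa, the acid lipase, had 139 to 227 against 903 to 1006 CPM. The protease Ctsh was higher in LPS, with 248 to 291 against 114 to 122 CPM.

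Of 20 scavenger and uptake receptors, 11 were higher and 6 lower in LPS, beside the same shares of all genes, with a median of 0.36. Fcgr1, the high-affinity IgG receptor, had 1408, 1491, 1579 and 1513 CPM in LPS libraries, against 54.5, 59.5, 54.8 and 53.3 CPM in IL-4 libraries and 92.3 to 106 CPM in M0 libraries (log2 fold change 4.76 ± 0.12, adjusted p = 5.74e-22). Clec4d, a C-type lectin of the dectin-2 cluster, had 309 to 433 CPM in LPS libraries, against 31.5 to 34.1 CPM in IL-4 libraries and 152 to 178 CPM in M0 libraries. Clec4n (dectin-2) had 36.1, 41.8, 44.5 and 44.7 CPM in LPS libraries, against 9.66, 8.48, 7.32 and 7.97 CPM in IL-4 libraries and 119, 103, 115 and 106 CPM in M0 libraries. Although higher in LPS than in IL-4 (log2 fold change 2.41 ± 0.10, adjusted p = 1.01e-17), Clec4n was below M0 in both, with log2 fold changes of -1.32 in LPS and -3.73 in IL-4. Cx3cr1, the fractalkine receptor, had the same order, with 61.9, 183, 139.8 and 116 CPM in LPS libraries, 6, 6.02, 3.35 and 5.32 CPM in IL-4 libraries and 226 to 248 CPM in M0 libraries. Cd163, the haemoglobin scavenger receptor, was lower in LPS, with 0, 0, 1.78 and 1.62 against 19.3, 16.3, 20.7 and 19.97 CPM (log2 fold change -3.49 ± 0.28, adjusted p = 2.66e-11), and IL-4 and M0 overlapped.

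Markers of other cell types were read in the same libraries. The counts below are to be read beside 31 percent higher and 31.9 percent lower in LPS among all genes. Of 10 stromal markers, 8 were higher in LPS, and their summed level was 12965 to 15908 CPM in LPS libraries, 8851 to 9399 CPM in IL-4 libraries and 13096 to 14787 CPM in M0 libraries. Col1a1 had 5064, 6109, 6499.5 and 6243 CPM in LPS libraries, against 3719, 3702, 3821 and 3483 CPM in IL-4 libraries (log2 fold change 0.70 ± 0.10, adjusted p = 1.51e-06), and none of the 10 was at 0 in all 8 libraries. The part of stromal cells, or of the other cell types below, in the results was not tested. The endothelial list summed to 20.6 to 53.5 CPM in LPS libraries and 51.5 to 62.2 CPM in IL-4 libraries, with 2 of 8 higher and 1 lower. Neutrophil markers summed to 36.1 to 63.7 CPM in LPS libraries and 17.2 to 24.2 CPM in IL-4 libraries, with 5 of 10 tested higher and 1 lower. The mast cell and basophil list summed to 52.3 to 76.8 CPM in LPS libraries and 7.95 to 9.44 CPM in IL-4 libraries, with 3 of 4 tested higher. Hdc, which makes histamine, had 36.6 to 56.7 against 0 to 0.2 CPM, while Cpa3, Tpsb2, Fcer1a and Prss34 had no read in these 8 libraries. T and NK cell markers summed to 5.23 to 26.5 CPM in LPS libraries and 48.03 to 48.9 CPM in IL-4 libraries, mostly through Il7r (5.16 to 21.1 against 47.2 to 48.2 CPM), with 2 of 4 tested higher and 1 lower and with Cd3e, Cd3g and Gzma at 0. B cell markers summed to 0 to 5.23 CPM in LPS libraries and 2.2 to 2.54 CPM in IL-4 libraries, with 1 of 3 tested higher. Dendritic cell markers summed to 0 to 4.14 against 2.46 to 3.08 CPM, with 2 of 5 higher and 1 lower, and erythroid markers to 0 to 0.517 against 1.2 to 1.47 CPM, with 1 of 3 lower and the globin genes Hba-a1, Hbb-bs and Hbb-bt at 0.

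The share of counts taken by the 10 most abundant genes was 10.76, 9.69, 9.59 and 9.49 percent in LPS libraries 1 to 4, against 7.71, 7.84, 7.40 and 7.68 percent in IL-4 libraries 1 to 4. In M0 libraries 1 to 4 it was 9.27, 9.66, 9.51 and 9.08 percent, which overlaps the LPS libraries. Every LPS library was above every IL-4 library, with an exact two-sided permutation p of 0.0286, the smallest that 4 against 4 allows. Apoe, Ftl1, Actb and Ctsb were among the 10 in all 8 libraries. Saa3 led the list in LPS, and in IL-4 Psap and Arg1 were on it in every library.

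Both stimulated states were set against the same M0 libraries, so their values against M0 are given side by side and not compared. LPS against M0 gave 4320 genes higher and 4152 lower (57.7 percent called in either direction), and IL-4 against M0 gave 4535 higher and 4301 lower (60.1 percent), where DESeq2 gave 2962 higher and 3476 lower. The split against M0 moved with the scaling: it was 3615 higher and 5119 lower for LPS with RLE size factors, where the median log2 fold change of all genes was -0.11 in place of -0.014. With TMM factors taken from genes of at least 20 CPM it was 3388 higher and 5451 lower for LPS (median -0.14) and 3484 higher and 5568 lower for IL-4 (median -0.12). Small changes against M0 are to be read relative to these shifts. The split for LPS against IL-4 was 4320 higher and 5005 lower with RLE factors.

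The same contrast in OGT KO macrophages was used to test whether the separation of the states differed by genotype. Ogt, the targeted gene, ranged from 34.2 to 53.8 CPM in KO LPS libraries and from 31.9 to 34.8 CPM in KO IL-4 libraries, against 55.0 to 68.0 CPM in WT LPS libraries and 49.2 to 58.2 CPM in WT IL-4 libraries. Ogt was lower in every KO library than in the WT libraries of the same state but not at 0. In LPS the highest KO value, 53.8 CPM, was so close to the lowest WT value, 55.0 CPM, that counting error could bridge them. The LPS medians were 37.3 CPM in KO and 57.0 CPM in WT. Which stretch was deleted the sources used here do not give. The difference in LPS against IL-4, KO minus WT, was called in 1748 genes (11.9 percent), with 1050 (7.15 percent) higher and 698 (4.75 percent) lower in KO. DESeq2 gave 664 higher and 271 lower. With TMM factors from genes of at least 20 CPM the split was 803 higher and 1139 lower, and without WT LPS library 3 it was 651 higher and 257 lower. Without WT LPS library 4 the number lower was 351, and without WT IL-4 library 2 the number higher was 694. KO LPS library 7 is also shallow, with 172771 gene counts, and no KO library was left out in turn.

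Of the 87 genes named by rule, 27 were called in the genotype difference, and 8 of these were chosen for their size in it. Acss1, a mitochondrial acetyl-CoA synthetase, had 13.5, 14.8, 17.9 and 18.2 CPM in KO LPS libraries 5 to 8, against 35.6, 34.8, 33.3 and 34.1 CPM in KO IL-4 libraries 5 to 8, and 0, 0, 3.71 and 2.73 CPM in WT LPS libraries, against 29.9, 31.3, 34.6 and 32.1 CPM in WT IL-4 libraries. Acss1 was lower in LPS in both genotypes, and less so in KO (difference 2.17 ± 0.19, adjusted p = 5.38e-08). Clic5, a chloride intracellular channel family member, had 67.7, 71.3, 47.8 and 52.7 CPM in KO LPS libraries, against 0.0613, 0.207, 0.34 and 0.268 CPM in KO IL-4 libraries, and 0, 10.5, 7.22 and 8.47 CPM in WT LPS libraries, against 0.16, 0.252, 0.343 and 0.0999 CPM in WT IL-4 libraries (difference 3.04 ± 0.48, adjusted p = 0.000169). For Clic5 every KO LPS value was above every WT LPS value, and the IL-4 values of the genotypes overlapped. Slc40a1, the iron exporter ferroportin, had 53.9, 57.9, 29.9 and 29.5 CPM in KO LPS libraries, against 24.1, 22.2, 14.5 and 13.8 CPM in KO IL-4 libraries, and 0, 10.5, 11.3 and 9.93 CPM in WT LPS libraries, against 25.7, 23.4, 18.9 and 23.9 CPM in WT IL-4 libraries (difference 2.45 ± 0.34, adjusted p = 4.02e-05). For Slc40a1, KO libraries 5 and 6 stood above KO libraries 7 and 8 in both states. If such pairs share an origin, which was not tested, the p-values are too small. After thinning all libraries to the depth of the shallowest, the Slc40a1 difference was 2.66 (adjusted p = 0.0956). Jag1, a Notch ligand, had 73.7, 75.3, 77.7 and 105 CPM in KO LPS libraries, against 16.6, 15.4, 25.2 and 22.7 CPM in KO IL-4 libraries, and 129, 105, 115 and 108 CPM in WT LPS libraries, against 7.77, 8.72, 10.8 and 10.3 CPM in WT IL-4 libraries (difference -1.49 ± 0.24, adjusted p = 0.000159). After the same thinning the Jag1 difference was -0.29 (adjusted p = 0.964). Genes named for LPS against IL-4 were called too, among them Mrc1 (difference 0.97 ± 0.195, adjusted p = 0.00157), Il27 (1.83 ± 0.365, adjusted p = 0.00148), Il1a (-1.11 ± 0.278, adjusted p = 0.00985) and Il6. Il6 had 43.5, 47.1, 0 and 40.4 CPM in KO LPS libraries, against 0.317, 0.442, 0.34 and 0.523 CPM in KO IL-4 libraries (difference 1.80 ± 0.31, adjusted p = 0.000351). The value of 0 is that of shallow KO library 7. For Nos2 the KO LPS libraries had 555, 556, 245 and 354 CPM, against 0.153, 0.221, 0.0851 and 0 CPM in KO IL-4 libraries, all 4 KO LPS values being above all 4 WT LPS values, but the difference in LPS against IL-4 was not called (2.05 ± 0.88, adjusted p = 0.136).

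Promoter motif matches were counted over all tested genes with a RefSeq promoter, 11547 genes, each gene counted as a match if any of its windows of 300 bases held the motif on either strand. The interferon response pattern was found in 12.4 percent of 1056 genes higher in LPS over 2-fold, 3.66 percent of 737 genes lower over 2-fold and 2.99 percent of 9754 genes that were neither. Among genes higher or lower by at least 16-fold the shares were 21.9 percent of 242 and 0 of 78 genes. The NF-kB consensus was found in 16.3 percent of genes higher, 11.3 percent of genes lower and 12.2 percent of the rest. The STAT6 pattern was found in 8.43 percent of genes higher, 8.96 percent of genes lower and 6.43 percent of the rest, and in 15.4 percent of genes lower by at least 16-fold, against 10.7 percent of those higher by at least 16-fold. Over all 32851 windows of the table, the share with a match was 8.46 percent for NF-kB, 3.44 percent for the interferon response pattern and 6.95 percent for the STAT6 pattern. These shares describe letters in a window, not binding, and genes differ in how many windows they have, with a mean per gene between 1.16 and 1.32 in these sets. Of the 17 core or largest-change genes higher in LPS, 14 had a promoter in the table, with an upstream match to NF-kB in 2 and to the interferon response pattern in 4. Of the 14 higher in IL-4, 10 had a promoter and 3 an upstream STAT6 pattern match, those printed at the start. These counts cover upstream bases only, whereas the shares above use whole windows. Over all 11547 genes the whole-window share was 12.5 percent for NF-kB, 3.9 percent for the interferon response pattern and 6.77 percent for the STAT6 pattern.

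**Figure D5:**
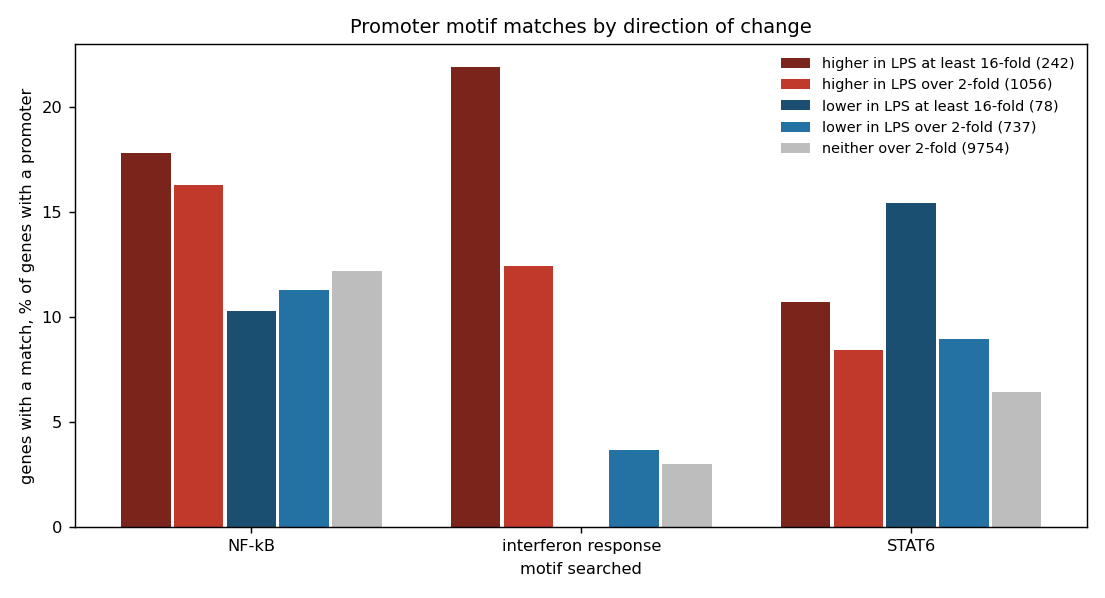
Share of genes (percent of genes with a promoter in the RefSeq table) whose promoter windows hold each motif, for genes higher in LPS by at least 16-fold and over 2-fold, lower by at least 16-fold and over 2-fold, and neither, with the number of genes in the legend. The interferon response pattern has the widest range, from 21.9 percent in genes higher by at least 16-fold to 0 in genes lower by at least 16-fold.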

How the data were processed

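Total RNA was extracted with an RNeasy Plus Mini Kit, per the labels' protocols, and 24 libraries were sequenced, of which the 4 LPS and 4 IL-4 WT libraries are described here. The authors deposited whole-number read counts per gene for each library. TopHat2 2.1.0, HTSeq 0.9.1 and the mouse build mm10 (GRCm38) are named per the submitters' processing notes. Not given in the sources used here are the gene annotation, the library kit, the strand setting and how Ogt was deleted. Reads of overlapping or antisense genes may thus be counted together. The 5 summary lines of each file, which name no gene, held 8.87 to 9.53 percent of the total in these 8 libraries and were left out.

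All 24 libraries entered a fit in edgeR 4.0.16 (R 4.3.3) with 6 group coefficients, TMM factors and edgeR's filter on low counts by group, which kept 14693 of 24421 genes. The quasi-likelihood test with Benjamini-Hochberg adjustment at 0.05 gave all adjusted p-values, and glmTreat tested against a 2-fold change. The standard error is the log2 fold change divided by the root of F. The genotype difference is the KO difference between LPS and IL-4 minus the WT one. Counts were simulated with WT M0 levels in every group, 14291 genes in the fit and 67 genes changed at each fold in WT LPS. There the fit called 77.6 percent of the genes changed 1.5-fold and 100 percent of those changed 2-fold or 4-fold. It made 13 false calls (6.53 percent of calls). In the real contrast 62.9 percent of genes were called, and the genes changed in the simulation were not of the lowest levels. Recovery under such broad change or at low levels was not tested. After thinning to the depth of the shallowest library, library pairs within a group still differed by more than counting error. Chi-square per degree of freedom was 1.22 to 1.73 in LPS and 1.06 to 1.16 in IL-4. The excess at the deposited depth, where counting error is smaller, was not measured.

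Named genes are 12 polarization genes whatever their test, the 12 called genes of largest change in each direction with at least 20 CPM in the higher group and no overlap, up to 3 called members of smallest adjusted p per pathway list, and the 4 called genes of largest genotype difference in each direction. Promoters were printed for up to 4 named genes per motif with a match before the start. Other list members were named after their values were seen, and a few are not reported here. The members and the 17 pathway and 9 marker lists were chosen with earlier results of these data known. Alternatives were DESeq2 1.42.0, RLE factors, other filters and sample sets, a replicate block, thinning to the shallowest library, and leaving out each WT LPS or WT IL-4 library. No KO or M0 library was left out in turn.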

Additional observations from a re-analysis of the deposited data

Results flagged for a closer look

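In 14 of 174 pairs of a named gene and a group of 4 libraries, the highest or lowest value stood apart from the other 3, with a gap, as a share of the group's range, above Dixon's 95 percent critical value. For normal values of equal precision, about 1 in 20 groups would be singled out by chance. That rate does not hold for these counts. A lone value above 0 beside values of 0 always stands apart, as for Rnase2a, Msx3, Scn3a and Cxcl11, and LPS libraries differ in depth. Of the 14 values apart, 11 are in LPS, where libraries 1 and 2 are shallow and a single read is worth about 5.2 CPM. The values of LPS library 2 that stood apart were 83.69 CPM for Arg1, 10.46 CPM for Mrc1, 41.84 CPM for Clec7a, 36.61 CPM for Idh1 and 15.69 CPM for H2-DMa. Those of LPS library 1 were 5.157 CPM for Lipn, which is 1 read, and 0 CPM for Slc40a1. The deep LPS libraries gave 1266.8 CPM for Cd14, 0.0713 CPM for Rnase2a and 0.01783 CPM for Msx3, the last a single read, in LPS library 4, and 0.03391 CPM for Scn3a in LPS library 3. In IL-4, the values apart were 1.824 CPM for Saa3 in library 1, against 6.98 to 7.31 CPM in the other IL-4 libraries, and 0.04577 CPM for Cxcl11 and 0.4462 CPM for Ms4a4c in library 3. No cause was tested.

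For 8 named genes, chosen for size among the 1748 called, the difference between LPS and IL-4 itself differed between KO and WT macrophages by edgeR's quasi-likelihood test on that difference. Higher in KO on the log2 scale were Clic5 (3.04), Slc40a1 (2.45), Serpina3g (2.23, adjusted p = 2.33e-06) and Acss1 (2.17). Lower in KO were Rn45s (-2.56, adjusted p = 0.00631), Lrrc4 (-1.98, adjusted p = 0.00011), Wisp1 (-1.57, adjusted p = 0.0177) and Jag1 (-1.49). Serpina3g, a serine protease inhibitor family gene, had 216, 209.8, 71.8 and 117 CPM in KO LPS libraries, against 15.6, 13.1, 11.3 and 9.45 CPM in KO IL-4 libraries, and 36.1, 26.2, 40.1 and 45.5 CPM in WT LPS libraries, against 12.1, 14.4, 14.2 and 15.3 CPM in WT IL-4 libraries. Rn45s is the ribosomal RNA precursor and took 0.0994, 0.271, 0.571 and 0.083 percent of gene counts in WT LPS libraries 1 to 4, against 0.0699 to 0.110 percent in WT IL-4 libraries. In KO it had 3730, 1477, 1135 and 729.7 CPM in IL-4 libraries 5 to 8, against 951 to 1328 CPM in LPS libraries. KO IL-4 library 5 was thus far above the other KO libraries, and no KO library was left out. Without WT LPS library 3 the Rn45s difference was -1.59 (adjusted p = 0.0607) and the Wisp1 difference -1.40 (adjusted p = 0.0985). With all libraries thinned to the shallowest the Wisp1 difference was -2.52 (adjusted p = 0.0676).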

How the results depend on the processing

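For LPS against IL-4, the named genes kept their direction and their call in all 1405 combinations of gene and alternative, with 65 of 79 genes testable after thinning and 76 among genes of at least 20 CPM. Most of these genes were chosen for a large change or small adjusted p in this same contrast. Their calls were therefore likely to hold, which says little about other called genes. For the 8 genotype differences 111 of 116 such values kept direction and call, with no KO library left out in any alternative. The 5 others lost the call, 2 without WT LPS library 3 and 3 of the 5 testable after thinning, where the differences were 2.66 for Slc40a1 (adjusted p = 0.0956), -2.52 for Wisp1 (adjusted p = 0.0676) and -0.29 for Jag1 (adjusted p = 0.964). Of 612 list counts, 586 stayed within 1.5 times and 26 moved, mostly with fewer genes or reads.

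Thinning every library to the depth of the shallowest left 1069 genes higher and 930 lower for LPS against IL-4 (459 and 160 over 2-fold), 945 and 700 for LPS against M0, 487 and 516 for IL-4 against M0, and 21 and 14 for the genotype difference. Fewer reads remain after thinning. Testing only genes of at least 20 CPM, which is fewer genes, gave 2776 higher and 3045 lower for LPS against IL-4 (772 and 472 over 2-fold), 2451 higher for LPS against M0, and 2571 higher and 2778 lower for IL-4 against M0. DESeq2 gave 515 genes lower over 2-fold for LPS against IL-4, 2962 higher for IL-4 against M0, and 664 higher and 271 lower for the genotype difference; the cause was not tested. TMM factors from genes of at least 20 CPM, chosen after seeing the data, gave 1139 genes lower in the genotype difference. Leaving out 1 WT LPS or WT IL-4 library at a time gave 651 to 1068 higher and 257 to 884 lower in the genotype difference. The dependence of that difference on single KO libraries was not tested. For LPS against IL-4 it gave 3925 to 4625 higher and 3882 to 5181 lower. Without any single IL-4 library the TMM scaling library becomes KO LPS library 7, of 172771 counts, and the median over all genes lay between -0.078 and -0.073. The excess of LPS over IL-4 in the share of the 10 most abundant genes was 1.88 percentage points without LPS libraries 1 and 2 (exact permutation p = 0.133, the smallest that 2 against 4 allows) and 1.931 to 2.355 points leaving out 1 library (exact permutation p = 0.0571, the smallest that 3 against 4 allows).

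Same-numbered LPS and IL-4 libraries did not deviate together throughout (correlations of -0.12, -0.11, 0.39 and 0.16 over 2131 genes), and LPS library 1 correlated best with IL-4 library 2. The deep LPS libraries 3 and 4 each correlated best with the IL-4 library of the same number. Counting error in the shallow LPS libraries 1 and 2 is large and enters the group mean, so these values cannot decide whether libraries are paired. With a replicate block, 4732 genes were higher and 4950 lower for LPS against IL-4. At the depth of LPS libraries 1 and 2, a level of up to about 15.5 CPM can give no read.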
